A study of Mus musculus with 6 samples.

Results

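Small leucine-rich proteoglycans are secreted proteins of the extracellular matrix, built from leucine-rich repeats that bind collagen. The 10 genes described here, Dcn, Bgn, Aspn, Lum, Fmod, Kera, Prelp, Omd, Ogn and Podn, were chosen by name, matched by Ensembl identifier to mouse symbols and found in the FPKM table of 52369 genes. FPKM is the number of sequenced fragments scaled to gene length and library size, so levels of different genes can be compared. Of the 10 genes, 9 had a mean of at least 1 FPKM over the 6 libraries and entered the test of 14788 genes, and Omd did not.

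The libraries came from tibialis anterior muscle of C57BL/6 mice labelled as 6 weeks old. In the L7 group (n = 3) the labels give overexpression of Linc-smad7, a long non-coding RNA, and in the Control group (n = 3) they give control as the genotype. All 6 muscles had been injured with cardiotoxin, a snake venom toxin that destroys fibres and starts regeneration, 50 µl at 10 µM given at 5 weeks of age. All had also received 6.25 µg of pcDNA3.1, a plasmid for expression in mammalian cells, with an in vivo transfection reagent, and were taken on day 7. The labels name no insert for the plasmid of the Control muscles. Plasmid delivery reaches some of the cells of a muscle, and each library holds the RNA of the whole tissue. In such bulk samples fewer cells of a type and less RNA per cell cannot be told apart. The labels do not say whether each library is 1 animal, so the p-values measure the spread between these samples.

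Decorin, biglycan and their relatives coat collagen fibrils and set their spacing and width. They also bind growth factors of the TGF-beta family, which Smad7 acts against inside the cell, and some of them signal through receptors at the cell surface. In injured muscle they are made mainly by fibroblasts and fibro-adipogenic progenitors, the connective tissue cells that lay down the matrix around regenerating fibres.

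Each library held between 19420012 and 24663153 reads assigned to genes. L7 replicate 3 stood apart, with a correlation over genes of 0.920 to 0.951 with the other libraries, against 0.979 to 0.989 among those. It had the highest summed level of 8 adult muscle fibre markers, and its share of mitochondrial reads was 4.20%, against 1.85% to 2.51% elsewhere. The median log2 difference of all genes tested was -0.15 on FPKM as deposited and -0.0029 after median of ratios scaling, which divides each library by its median ratio to a common profile. Fibre markers were present in every library (8 of 8 above 0), with summed levels of 30723 to 90810 FPKM in L7 and 20124 to 28303 FPKM in Control libraries. Values without L7 replicate 3 stand beside the members and partner lists whose difference moved with it.

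The study's title names the microRNA miR-125b, so the 3 prime untranslated regions were searched for its seed match. The mature sequence, from RefSeq on GRCm38.p6, is shown because its seed, bases 2 to 8 in capitals, defines that match.
mmu-miR-125b-5p: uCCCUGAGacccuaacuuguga
The complement of the seed, CTCAGGG, was in 0 of the 10 members, whose longest annotated regions ran from 435 bases in Omd to 2302 bases in Prelp. Over the 12714 genes tested that have such a region, 17.0% held the match. Of the fibrillar collagens that the proteoglycans bind, only Col1a1, Col1a2 and Col3a1 were searched. Col1a1 held 1 match, at base 672 of its region on chromosome 11, while Col1a2 and Col3a1 held 0. The Col1a1 match is shown in capitals with 10 bases on either side.
Col1a1: acctgcccctCTCAGGGgtttggagcc
A match is a description of letters and says nothing of binding. Col1a1 had a mean of 7151 ± 1899 FPKM in L7 and 7376 ± 1652 FPKM in Control libraries (SD, n = 3 each), a difference well inside the spread.

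None of the 9 tested members passed the test between the groups. At an adjusted p under 0.05 in limma, with Benjamini-Hochberg adjustment over all genes, 0 of 9 were called, against 0.00% of all genes tested. At an unadjusted p under 0.05 the count was 0 of 9, against 5.90% of all genes (1.65% higher and 4.25% lower in L7). After median of ratios scaling it was 2 of 9, Prelp (0.70, p 0.0430) and Podn (0.52, p 0.0362), each with an adjusted p of 0.616 in limma. With that scaling 911 of the 14788 genes tested had an unadjusted p under 0.05. L7 and Control values overlapped in all 10 members, whereas the groups did not overlap in 19.2% of the genes tested. The median log2 difference of the 9 was 0.03, which lay 0.18 above the median of all genes, with 5 members positive and 4 negative. Over all genes 29.2% were positive. With median of ratios scaling and without L7 replicate 3 the members lay 0.05 above the median of all genes. The authors' deposited table likewise marked 0 of the 10 at an unadjusted p under 0.05, where it marked 1.13% of the genes it tested (0.382% higher and 0.751% lower in L7). At an adjusted p under 0.05 it marked 0 of the 10, against 0.0284% of those genes.

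**Figure D1:**
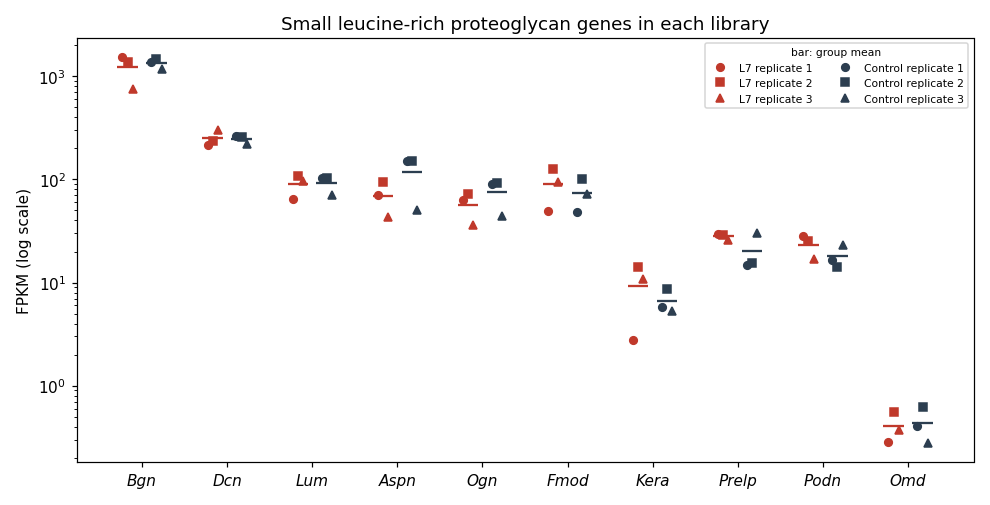
FPKM of each of the 10 genes (log axis) in each library, with L7 libraries in red left of Control libraries in dark blue, symbols for replicates and a bar at each group mean. Levels run from 1535 FPKM for Bgn to 0.277 FPKM for Omd, and the 2 groups overlap for every gene.

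Biglycan and decorin, which carry chondroitin or dermatan sulfate chains, were the most abundant. Bgn, on chromosome X from 73483602 to 73495933 (mm10), encodes biglycan, which binds the dystrophin-associated complex of muscle and can signal through Toll-like receptors. Its level was 1535, 1389 and 754 FPKM in L7 replicates 1, 2 and 3, against 1371, 1472 and 1171 FPKM in Control replicates 1, 2 and 3. L7 replicates 1 and 2 lay within or above the Control range, and L7 replicate 3 lay far below every other library. The log2 difference was -0.19 ± 0.31 (SE), with an adjusted p of 0.756 in limma. Without L7 replicate 3 it was 0.13, so its sign turned on that library.

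Dcn (chromosome 10, 97479609 to 97518143) encodes decorin, which binds TGF-beta and myostatin. It was at 216, 237 and 304 FPKM in L7 replicates 1, 2 and 3, against 261, 256 and 221 FPKM in Control replicates 1, 2 and 3. Here L7 replicate 3 was the highest library, opposite to Bgn, and the whole range of the 6 libraries was 1.41-fold, the narrowest of the 10 genes. The log2 difference was 0.03 ± 0.18 (SE; adjusted p 0.944 in limma), and -0.12 without L7 replicate 3. The ratio of Bgn to Dcn, which does not move with library scaling, was 7.09, 5.86 and 2.48 in the L7 libraries, against 5.25, 5.75 and 5.31 in the Control libraries. L7 replicate 3 was the low library, while the other 5 lay between 5.25 and 7.09.

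The make-up of the family varied with the same library. Bgn made up 74.5%, 66.4% and 54.5% of the summed FPKM of the 10 genes in L7 replicates 1, 2 and 3, against 66.4%, 66.5% and 69.3% in Control replicates 1, 2 and 3. The Control shares lay within 3 percentage points of each other and the L7 shares on either side of them. Dcn took 10.5%, 11.3% and 22.0% in the L7 libraries, against 12.7%, 11.6% and 13.1% in the Control libraries. The sum over the 10 genes was 2060, 2093 and 1382 FPKM in L7, against 2064, 2214 and 1690 FPKM in Control libraries. Relative to summed Col1a1, Col1a2 and Col3a1 it was 13.4%, 10.9% and 11.2% in L7, against 13.2%, 10.8% and 11.9% in Control replicates 1, 2 and 3. Per collagen, the L7 and Control libraries covered almost the same range.

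**Figure D2:**
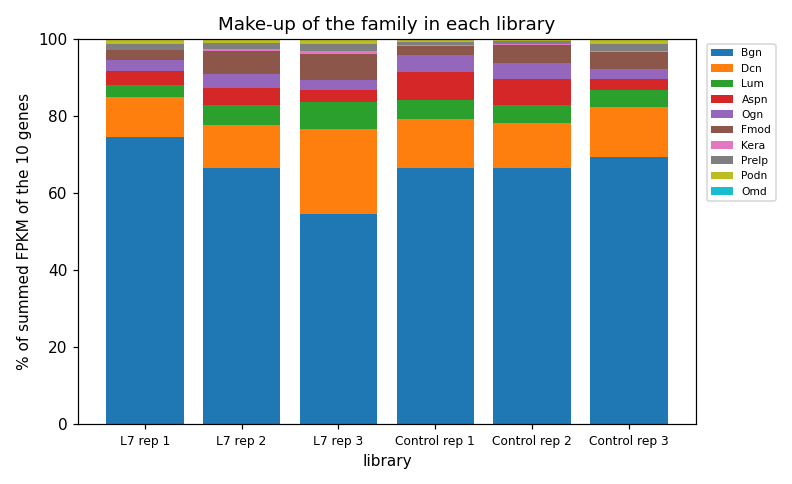
Share of each gene in the summed FPKM of the 10 genes (%), by library, L7 libraries left of Control libraries. Bgn fills 54.5% to 74.5% of each bar, and the Dcn share is 22.0% in L7 replicate 3 and 10.5% to 13.1% in the other libraries.

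Asporin and osteoglycin had the lowest L7 to Control differences. Aspn (chromosome 13, 49544443 to 49567565) encodes asporin, a relative of decorin with a run of aspartates, which can hold back TGF-beta. It was at 70.2, 94.2 and 43.5 FPKM in L7 replicates 1, 2 and 3, against 149.8, 151 and 50.6 FPKM in Control replicates 1, 2 and 3. Control replicates 1 and 2 were the highest libraries, and Control replicate 3 lay below L7 replicates 1 and 2. The log2 difference was -0.66 ± 0.47 (SE), with an unadjusted p of 0.198 and an adjusted p of 0.580 in limma. Without Control replicate 3 it was -1.18 (unadjusted p 0.0108, adjusted p 0.692), and without L7 replicate 3 it was -0.36.

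Ogn (chromosome 13, 49608046 to 49624501) encodes osteoglycin, also called mimecan, a small member of the family. It followed the same order of libraries, with 62.8, 71.8 and 36.4 FPKM in L7, against 91.2, 92.3 and 44.2 FPKM in Control replicates 1, 2 and 3. The log2 difference was -0.39 ± 0.36 (SE; adjusted p 0.610 in limma), and -0.10 without L7 replicate 3. Without Control replicate 3 it was -0.73. Control replicate 3 therefore sat at the low end of its group for both genes, next to L7 replicate 3.

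Omd, for osteomodulin, a proteoglycan of bone, lies between Aspn and Ogn, 14.9 kb from Aspn and 15.2 kb from Ogn. With 0.284, 0.558 and 0.372 FPKM in L7 and 0.402, 0.622 and 0.277 FPKM in Control replicates 1, 2 and 3 it was the lowest of the family. That corresponds to 12, 22 and 15 reads in L7 and 16, 23 and 13 reads in Control libraries, too few to show a moderate difference. Of the 6 cartilage and bone markers, 5 were above 0 in every library, and their summed level was 9.68 to 17.9 FPKM in L7 and 13.6 to 20.2 FPKM in Control libraries. Of the 3 bone genes among them, Ibsp and Bglap were lower in every L7 library than in every Control library. Such an order held for 13.7% of all genes tested, and Bglap, with a mean under 1 FPKM, was not tested. Sp7, the osterix gene, overlapped between the groups (log2 difference 0.16). Of the cartilage genes, Acan (-0.82) and Sox9 (-0.27) were negative and Col2a1 (0.45) was positive, each with overlapping groups. Ibsp, bone sialoprotein, was at 0.196, 1.03 and 0.205 FPKM in L7, against 3.79, 1.79 and 2.06 FPKM in Control replicates 1, 2 and 3 (unadjusted p 0.00325, adjusted p 0.580 in limma). Bglap, the osteocalcin gene, was listed at 0 in L7 replicate 2, at 0.683 and 0.238 FPKM in L7 replicates 1 and 3, and at 0.819 to 3.14 FPKM in Control libraries. Aspn, Omd and Ogn all lie within the span of Cenpp on the opposite strand, and no source used here states whether the counting used strand. Cenpp averaged 1.34 FPKM over the 6 libraries, of the order of Omd and far under Aspn and Ogn.

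Profiles over the libraries were compared between members. With each gene's log2(FPKM + 1) levels centred on their mean, the nearest member to Aspn was Ogn (root mean square difference 0.23 over the 6 libraries). Dcn and Lum, 47.0 kb apart on chromosome 10, were each other's nearest member (0.22). Not every neighbour was nearest. Kera lies 34.2 kb beyond Lum and was nearest to Fmod on chromosome 1 (0.31). Prelp and Fmod, 115.8 kb apart on chromosome 1, differed by 0.61, and Prelp was nearest to Podn on chromosome 4 (0.23). All these pairs were read from the same 6 libraries, so the distances are descriptions. Only members were compared here, and genes outside the family lay nearer to every member but Kera. Examples were Fopnl to Dcn (0.029), Dpt to Lum (0.078) and Cd276 to Ogn (0.064). For Kera the nearest such gene, Col11a2 (0.315), was about as near as Fmod. The distances therefore do not single out neighbouring genes.

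**Figure D3:**
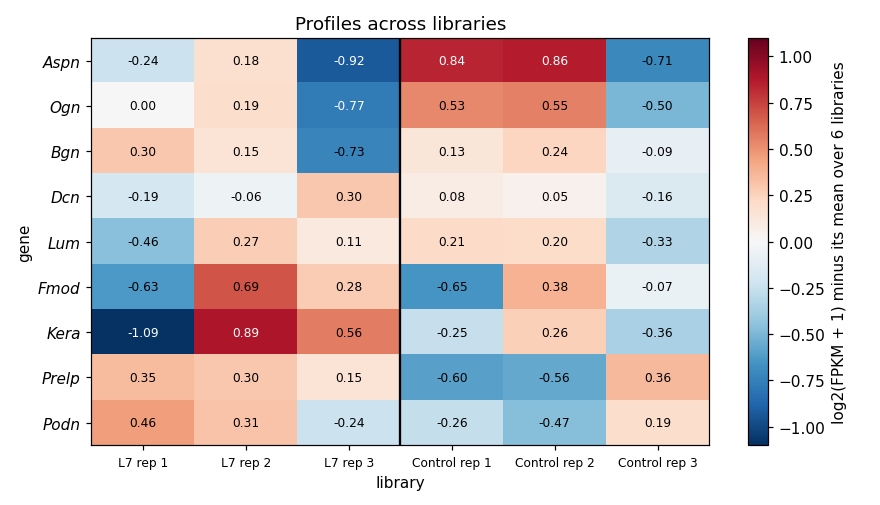
Centred log2(FPKM + 1) level of 9 genes (rows) in each library (columns, L7 left of Control), red above and blue below the gene's own mean. Aspn and Ogn are high in Control replicates 1 and 2 (0.84 and 0.86 for Aspn), and Prelp is low in the same libraries (-0.60 and -0.56).

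The 250 bases before the RefSeq start sites of Aspn and Ogn (GRCm38.p6, plus strand) are shown. Aspn is at chr13:49544193-49544442 and Ogn at chr13:49607765-49608014. The pair was picked after its values were seen, and Prelp and Podn were as near to each other (0.23). Capitals mark TATAAA, searched on both strands.
Aspn: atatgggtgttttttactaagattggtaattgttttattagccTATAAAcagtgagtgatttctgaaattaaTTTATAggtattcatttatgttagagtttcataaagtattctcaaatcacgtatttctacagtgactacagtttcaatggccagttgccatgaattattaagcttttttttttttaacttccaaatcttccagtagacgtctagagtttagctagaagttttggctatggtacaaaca
Ogn: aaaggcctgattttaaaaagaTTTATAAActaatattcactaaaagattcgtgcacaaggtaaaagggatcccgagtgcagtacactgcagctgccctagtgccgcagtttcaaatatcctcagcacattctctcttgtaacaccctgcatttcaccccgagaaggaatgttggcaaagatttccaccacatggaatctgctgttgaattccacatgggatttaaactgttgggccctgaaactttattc
In Aspn the matches begin 207 and 178 bases before the start, and in Ogn 2 overlapping matches begin 229 and 227 bases before it. TATAAA was in 13.6% of 32851 promoter windows of 300 bases in the same table, and of the members only in Aspn and Ogn. A table entry was found for 8 members. The AP-1 motif TGANTCA and the SMAD palindrome GTCTAGAC, both searched on both strands, were in the windows of 0 members and in 7.81% and 0.213% of all windows. The E box CANNTG was in 72.3% of all windows and in those of Aspn, Bgn, Fmod, Ogn, Podn and Prelp. The CCAAT box was in 37.4% of all windows and in those of Aspn, Fmod, Kera and Prelp, but not of Ogn. Whether any of these motifs bears on the profiles was not tested.

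The keratan sulfate carriers, lumican, fibromodulin and keratocan, had overlapping groups and log2 differences smaller than their SE. Lum (chromosome 10, 97565128 to 97572703), known from the cornea for spacing collagen fibrils, was at 64.8, 108 and 97.2 FPKM in L7 replicates 1, 2 and 3, against 104, 103 and 71.3 FPKM in Control replicates 1, 2 and 3. L7 replicate 1 and Control replicate 3 were the low libraries. Its log2 difference was -0.05 ± 0.24 (SE; adjusted p 0.910 in limma), and 0.12 after median of ratios scaling.

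Fmod (chromosome 1, 134037254 to 134048277) encodes fibromodulin, a collagen-binding proteoglycan abundant in tendon. It was at 49.4, 125 and 93.6 FPKM in L7 replicates 1, 2 and 3, against 48.5, 100.1 and 73 FPKM in Control replicates 1, 2 and 3. L7 replicate 1 and Control replicate 1 were lowest and nearly equal. Kera (chromosome 10, 97606879 to 97613692), for keratocan of the corneal stroma, was at 2.79, 14.0 and 10.9 FPKM in L7, against 5.79, 8.65 and 5.30 FPKM in Control replicates 1, 2 and 3. Its lowest and highest libraries, 5.02-fold apart, were both in the L7 group, the widest range of the 10 genes. The log2 differences were 0.23 ± 0.38 (SE; adjusted p 0.755 in limma) for Fmod and 0.24 ± 0.49 (SE; adjusted p 0.804) for Kera. Without L7 replicate 1 that of Kera was 0.84 (unadjusted p 0.0122, adjusted p 0.387), without L7 replicate 2 it was -0.15, and without L7 replicate 3 it was 0.02.

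Tendon cell markers and reads of the Y chromosome were set beside Fmod and Kera. All 6 tendon markers were above 0 in every library, with summed levels of 523 to 761 FPKM in L7 and 543 to 687 FPKM in Control libraries, and Thbs4, a thrombospondin of tendon, was highest in L7 replicate 2 at 569 FPKM. Comp, the cartilage oligomeric matrix protein, was at 55.7, 84.6 and 44.2 FPKM in L7, against 29.5, 48.3 and 45.6 FPKM in Control replicates 1, 2 and 3 (log2 difference 0.55, unadjusted p 0.0910, adjusted p 0.580 in limma). Tnmd, the tenomodulin gene, was at 24.5, 54.8 and 32.6 FPKM in L7, against 57.4, 66.0 and 24.2 FPKM in Control replicates 1, 2 and 3 (log2 difference -0.35). The tendon markers thus differed in sign, with 2 of 6 positive. Reads of 4 Y-linked genes numbered 3185 in L7 replicate 1, 4184 in Control replicate 1 and 4168 in Control replicate 3, and at most 2 in the other 3 libraries. The 3 libraries with at most 2 such reads had the 3 highest values of Fmod and of Kera, and this was so for no other member. How many of all genes had the same order was not counted, so no share stands beside these genes. Without that share the order cannot be read as a result about Fmod and Kera. With sex as a covariate the L7 to Control differences were -0.08 for Fmod and -0.16 for Kera. The part of tendon tissue and of sex in these values was not tested.

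Prelp and Podn had the highest differences on the log2(FPKM + 1) scale. Prelp (chromosome 1, 133910304 to 133921414, minus strand) encodes a proteoglycan that binds heparan sulfate of basement membranes. It was at 29.8, 28.6 and 25.8 FPKM in L7 replicates 1, 2 and 3, against 14.9, 15.4 and 30.0 FPKM in Control replicates 1, 2 and 3. The L7 libraries lay close together and near Control replicate 3, while Control replicates 1 and 2 were far lower. The log2 difference was 0.53 ± 0.27 (SE), with an unadjusted p of 0.0822 and an adjusted p of 0.580 in limma. Without Control replicate 3 it was 0.85 (unadjusted p 0.00181, adjusted p 0.692).

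Podn (chromosome 4, 108014791 to 108096445, minus strand) encodes podocan, found in smooth muscle and kidney glomeruli. It was at 28.1, 25.2 and 16.8 FPKM in L7, against 16.7, 14.2 and 23.1 FPKM in Control replicates 1, 2 and 3. L7 replicate 3 fell among the Control libraries, unlike L7 replicates 1 and 2. The log2 difference was 0.36 ± 0.25 (SE; unadjusted p 0.191, adjusted p 0.580 in limma), and 0.57 without L7 replicate 3 (unadjusted p 0.0280, adjusted p 0.743). The annotated span of Podn overlaps that of Scp2 on the same strand, at a mean of 109 FPKM, and no source used here states how shared reads were counted. In the authors' deposited table Prelp had a log2 fold change of 0.65 with an unadjusted p of 0.0603, Podn one of 0.52 with an unadjusted p of 0.0832, and Kera the highest of the 10, 0.70, with an unadjusted p of 0.355.

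**Figure D4:**
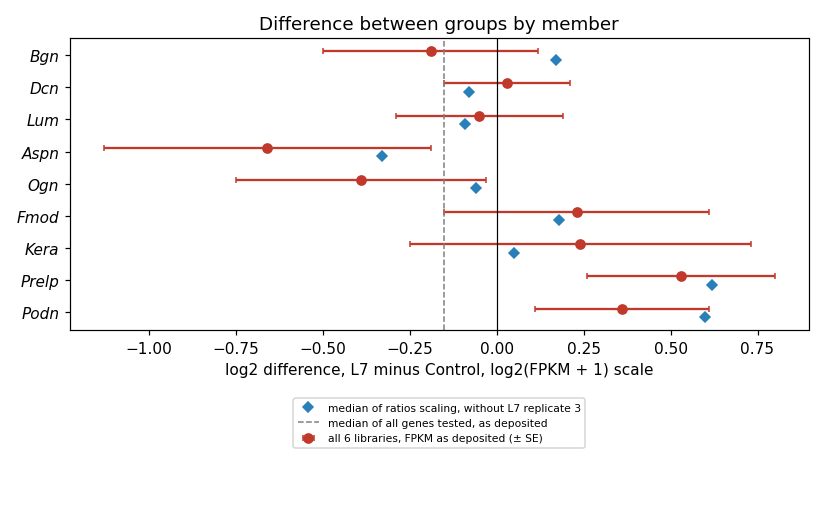
Log2 difference, L7 minus Control, of 9 genes on the log2(FPKM + 1) scale, as circles with SE for all 6 libraries and as diamonds with median of ratios scaling without L7 replicate 3. Prelp (0.53 and 0.62) and Podn (0.36 and 0.60) are positive in both, whereas Bgn (-0.19 and 0.17) and Dcn (0.03 and -0.08) change sign.

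For Aspn, Ogn and Prelp, Control replicate 3 lay on the side of the L7 libraries. Outside the members, the genes nearest to Aspn by the same measure were C1qtnf3 (0.117), Postn (0.130) and Ptn (0.137), named after their values were seen. Postn, the matrix protein periostin of activated fibroblasts, was at 1289, 1532 and 654 FPKM in L7, against 2228, 2232 and 919 FPKM in Control replicates 1, 2 and 3. The nearest to Prelp was Prg4 (0.098), the gene of lubricin, with 13.7, 16.3 and 13.0 FPKM in L7 and 7.13, 7.89 and 16.5 FPKM in Control replicates 1, 2 and 3. To the mean profile of the 9 members the nearest genes were Ltbp3, Eva1b, Atg16l2, Sema3f and Gas2l1, at root mean square differences of 0.045 to 0.084. Ltbp3, a binding protein of latent TGF-beta, was at 51.0 ± 8.09 FPKM in L7 and 50.0 ± 7.84 FPKM in Control libraries (SD, n = 3 each).

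Markers of the connective tissue cells that make these proteins were also compared. All 8 fibro-adipogenic progenitor markers were above 0 in every library, with summed levels of 824 to 1005 FPKM in L7 and 1155 to 1522 FPKM in Control libraries. Most of that sum is Ly6a, which is also induced by interferon, at 706, 657 and 513 FPKM in L7, against 1041, 783 and 1236 FPKM in Control replicates 1, 2 and 3. Its log2 difference was -0.69 ± 0.24 (SE; unadjusted p 0.0232, adjusted p 0.580 in limma). Mfap5, a microfibril protein, was at 127 ± 6.74 FPKM in L7 and 166 ± 40.3 FPKM in Control libraries (SD, n = 3 each), and 3 of the 8 markers had positive differences. Markers of other cells were also present. The summed level of 5 macrophage markers was 1001 to 2782 FPKM in L7 and 1664 to 2375 FPKM in Control libraries, that of 4 regenerating fibre markers 522 to 1205 FPKM in L7 and 740.3 to 993 FPKM in Control libraries, and that of 4 endothelial markers 162 to 167 FPKM in L7 and 147 to 186 FPKM in Control libraries. Pericyte and smooth muscle markers (5 genes) summed to 235 to 372 FPKM in L7 and 273 to 552 FPKM in Control libraries. The 4 Schwann cell markers summed to 6.29 to 44.9 FPKM in L7, highest in replicate 3, and 5.20 to 6.50 FPKM in Control libraries, and the 4 adipocyte markers to 5.70 to 10.6 FPKM in L7 and 0.549 to 3.69 FPKM in Control libraries. The part of cell numbers in the members' levels was not tested.

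The partners of the family were described from lists and not tested as lists. Of the 8 other small leucine-rich proteoglycan genes, 5 entered the test, 0 passed it and 2 were positive, with a median log2 difference of -0.29, or -0.01 after scaling and without L7 replicate 3. Podnl1, the closest relative of Podn, was at 4.07 ± 2.54 FPKM in L7 and 7.61 ± 2.15 FPKM in Control libraries (SD, n = 3 each), with a log2 difference of -0.89 ± 0.43 (SE; adjusted p 0.580 in limma). Without L7 replicate 3 it was -0.39. Tsku, for tsukushi, was at 12.6 ± 4.47 FPKM in L7 and 16.0 ± 3.51 FPKM in Control libraries, and Chadl at 1.92 ± 0.435 and 1.35 ± 0.129 FPKM in the same order (SD, n = 3 each). The log2 difference of Tsku was -0.35, or -0.04 without L7 replicate 3, and that of Chadl 0.30, or 0.20 without it. Ecm2, which adjoins Aspn on chromosome 13 at 11.7 kb, was at 6.01, 7.14 and 5.63 FPKM in L7, against 8.94, 10.5 and 5.08 FPKM in Control replicates 1, 2 and 3. Control replicates 1 and 2 were again its highest libraries. Epyc, next to Kera, was listed at 0 in 4 libraries.

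Of the 11 collagens that these proteins bind, 0 passed and the median was -0.13, beside the -0.15 of all genes, and 0.09 after scaling and without L7 replicate 3. Col12a1, a collagen on the surface of fibrils, was at 67.9, 103 and 24.0 FPKM in L7, against 121, 154 and 61.5 FPKM in Control replicates 1, 2 and 3, with overlapping groups. Its log2 difference was -0.91 ± 0.55 (SE), and -0.32 without L7 replicate 3. Col5a2, which limits fibril width, was at 409 ± 128 FPKM in L7 and 532 ± 143 FPKM in Control libraries (SD, n = 3 each). The log2 difference of Col5a2 was -0.39, or -0.10 without L7 replicate 3.

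Among 12 growth factors and other secreted proteins bound by the family, 0 passed at the adjusted threshold, and 3 were lower in L7 at an unadjusted p under 0.05, where 4.25% of all genes were. Every L7 value was below every Control value in 3 of the 12, against 13.7% of all genes, and above every Control value in 1, the myostatin gene Mstn, against 5.49% of all genes. The median of the 12 was -0.15, equal to that of all genes, and 0.05 after scaling and without L7 replicate 3. Ccn2, a matricellular protein induced by TGF-beta and bound by decorin, was at 13.4, 20.5 and 8.93 FPKM in L7, against 29.6, 27.7 and 24.8 FPKM in Control replicates 1, 2 and 3. Bmp2 was at 2.40, 3.85 and 1.45 FPKM in L7, against 6.80, 4.52 and 6.14 FPKM in Control replicates 1, 2 and 3. For both genes the groups did not overlap, and the log2 differences were -0.96 ± 0.27 for Ccn2 and -0.98 ± 0.28 for Bmp2 (SE; adjusted p 0.580 each in limma). Without L7 replicate 3 they were -0.68 for Ccn2 and -0.73 for Bmp2. C1qa, a complement subunit that biglycan and decorin bind, was at 748 ± 82.5 FPKM in L7 and 766 ± 150.1 FPKM in Control libraries (SD, n = 3 each).

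Of 13 receptors 12 entered the test, 0 passed, 1 was positive and the median was -0.31, or 0.01 after scaling and without L7 replicate 3. Tlr4, a receptor of soluble biglycan, was at 10.7 ± 4.20 FPKM in L7 and 16.1 ± 2.28 FPKM in Control libraries (SD, n = 3 each). Met, a receptor that decorin blocks, was at 8.21 ± 3.13 FPKM in L7 and 12.7 ± 2.34 FPKM in Control libraries (SD, n = 3 each). The log2 differences were -0.60 for Tlr4 and -0.62 for Met, or -0.31 and -0.30 without L7 replicate 3. Lrp1, an endocytic receptor for decorin, was at 207 FPKM in L7 replicate 3 and at 428 to 572 FPKM in the other libraries.

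The enzymes that build the sugar chains had 22 of 25 members in the test. All 22 had negative differences, where 70.8% of all genes did, with a median of -0.24 and 0 past the threshold. In 4 of the 22 each L7 library lay below each Control library, against 13.7% of all genes. Chsy1, a chondroitin synthase, was at 11.2, 12.2 and 4.14 FPKM in L7, against 14.3, 14.6 and 12.8 FPKM in Control replicates 1, 2 and 3. Chst11, a chondroitin sulfotransferase, was at 4.08, 3.97 and 1.24 FPKM in L7, against 5.39, 5.51 and 4.31 FPKM in Control replicates 1, 2 and 3. L7 replicate 3 was lowest for both, and after scaling and without it the list median was -0.05. Dse, a dermatan sulfate epimerase, was at 58.3 ± 20.7 FPKM in L7 and 74.1 ± 5.49 FPKM in Control libraries (SD, n = 3 each). Its log2 difference was -0.41, or -0.07 without L7 replicate 3.

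Of the 10 proteases reported to cut these proteins, 0 passed, 10 were negative and the median was -0.40, or -0.15 after scaling and without L7 replicate 3. Gzmb, the granzyme of cytotoxic lymphocytes, which can cut decorin, was at 39.3, 25.7 and 18.3 FPKM in L7, against 67.6, 45.7 and 89.2 FPKM in Control replicates 1, 2 and 3, and the groups did not overlap. Its log2 difference was -1.27 ± 0.33 (SE; unadjusted p 0.00559, adjusted p 0.580 in limma). Mmp13, a collagenase, was at 3.89 ± 2.32 FPKM in L7 and 6.73 ± 1.83 FPKM in Control libraries (SD, n = 3 each), with overlapping groups. Mmp14, a membrane metalloprotease, was at 562 ± 162 FPKM in L7 and 720.4 ± 189 FPKM in Control libraries (SD, n = 3 each). The log2 differences were -0.74 for Mmp13 and -0.37 for Mmp14, or -0.42 and -0.11 without L7 replicate 3. Of 19 other proteoglycans 17 entered the test, 0 passed and 7 were positive, with a median of -0.16, or -0.01 after scaling and without L7 replicate 3. Every L7 value was above every Control value in 2 of the 17, Gpc1 and Spock2, against 5.49% of all genes. The reverse order held in 0 of the 17, against 13.7% of all genes. Gpc1, a glypican, was at 316, 334 and 373 FPKM in L7, against 259, 295 and 254 FPKM in Control replicates 1, 2 and 3 (log2 difference 0.34, adjusted p 0.580 in limma). Srgn, the serglycin of blood cell granules, was at 125 ± 47.4 FPKM in L7 and 210.4 ± 53.7 FPKM in Control libraries (SD, n = 3 each; unadjusted p 0.0477, adjusted p 0.580 in limma), with a log2 difference of -0.80, or -0.44 without L7 replicate 3. Acan, the aggrecan of cartilage, was at 1.55 ± 1.02 FPKM in L7 and 3.48 ± 1.48 FPKM in Control libraries (SD, n = 3 each). Sdc3, a syndecan of the cell surface, was at 195 FPKM in L7 replicate 3 and at 358 to 489 FPKM in the other libraries.

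**Figure D5:**
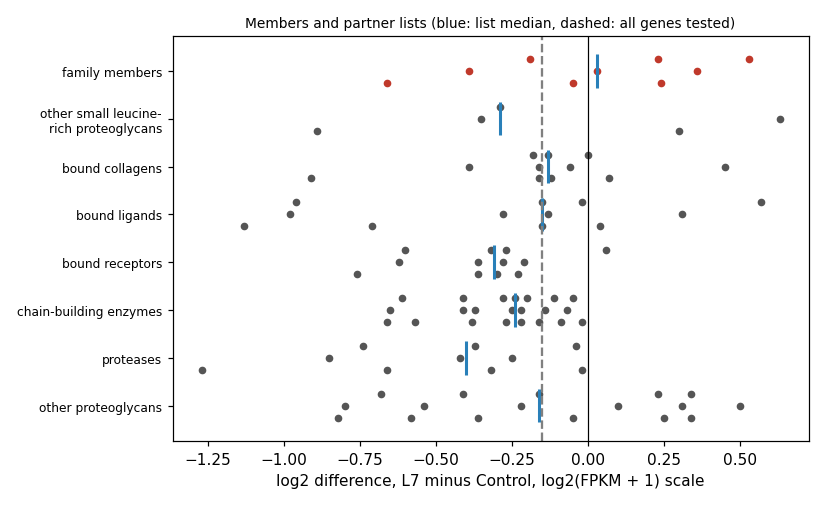
Log2 difference, L7 minus Control, of each tested gene in the family and its partner lists, with the list median in blue and the median of all genes (-0.15) dashed. The family runs from -0.66 (Aspn) to 0.53 (Prelp) around a median of 0.03, and all points of the chain-building enzymes and the proteases lie below 0.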

How the data were processed

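The authors' deposited FPKM table holds 1 value per gene and library, and 51633 of its 52369 genes were given a symbol from GENCODE M21 (mm10). Per the submitters' processing notes the build was mm10, and DESeq 1.12.0, HISAT2 2.0.4, TopHat2 2.0.12 and Bowtie2 2.2.3 are named without roles. The authors' deposited comparison holds, per the file headers, the p-value of each gene before and after adjustment, its log2 fold change, and a mean signal of size-factor normalised reads per group. Whole reads were recovered from low FPKM steps and those group means (100.0% of 152096 values above 0 within 0.05 of a whole number). They give the depth and were used for limma voom.

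Groups were compared on log2(FPKM + 1), which understates changes of low genes, by the two-sided trend test of limma (version 3.58.1, in R 4.3.3). It covered 14788 genes with a mean of at least 1 FPKM, adjusted after Benjamini-Hochberg with 0.05 as threshold. Python 3.11.15, pandas 2.3.3, numpy 2.4.6 and matplotlib 3.10.9 made tables and figures. Members and lists were chosen with earlier results of these data known. Named genes are the members, in each partner list the 2 of smallest p and the 1 of highest level, the 2 highest markers of a cell type, and the 5 nearest profiles. Ecm2, Epyc, Col1a2, Col3a1, Bglap, Ibsp, Sp7, Mstn, Tnmd, Cenpp, Scp2, Postn, C1qtnf3, Ptn and Prg4 were added after their values were seen. So were Fopnl, Dpt, Cd276, Col11a2, Gpc1 and Spock2.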

Additional observations from a re-analysis of the deposited data

How the results depend on the processing

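No member passed the adjusted threshold in any of the 144 values under alternatives, where the smallest adjusted p was 0.348, and 127 of them kept their direction. That count includes runs that cannot change a log2 difference, namely a level limit of 5 FPKM, no level limit and the balanced replicate block. Their directions were fixed in advance and say nothing of stability. Differences turned sign for Lum (0.12) with median of ratios scaling, for Dcn (-0.13) and Bgn (0.05) with array weights, and for Dcn (-0.04), Fmod (-0.08) and Kera (-0.16) with the sex covariate. With that scaling and L7 replicate 3 left out, Dcn was at -0.08 and Bgn at 0.17. Leaving out 1 library at a time gave ranges of -0.12 to 0.13 for Dcn, -0.38 to 0.13 for Bgn, -0.23 to 0.16 for Lum, -0.06 to 0.60 for Fmod, -0.15 to 0.84 for Kera, -1.18 to -0.36 for Aspn, -0.73 to -0.10 for Ogn, 0.37 to 0.85 for Prelp, 0.21 to 0.57 for Podn and -0.15 to 0.16 for the median of the members. Prelp and Podn stayed positive, and Aspn and Ogn negative, in every alternative run. Over all genes 0 were called, with 873 at an unadjusted p under 0.05, and 3 were called with array weights and 1 with that scaling and L7 replicate 3 left out. limma voom on the recovered reads called 0 genes, with 832 at an unadjusted p under 0.05. Leaving out 1 library called 0 or 1 gene. Genes at an unadjusted p under 0.05 numbered 1635 without L7 replicate 1, 979 without L7 replicate 3 and 574 without Control replicate 3. With replicate number as a block Aspn (-0.66) and Ogn (-0.39) had unadjusted p-values of 0.0255 and 0.0419 and an adjusted p of 0.504 each, and 0 genes were called. In that run 1178 genes had an unadjusted p under 0.05. Deviations of same-numbered libraries correlated at 0.32, -0.07 and 0.09, so the numbers were not taken as pairs. Omd was below the level limit, and without that limit its difference was -0.03 (p 0.831, adjusted p 0.938 in limma). Prelp (0.74) and Podn (0.63) had unadjusted p-values of 0.00625 and 0.00376 with array weights, with adjusted p-values of 0.364 and 0.348. With array weights 1616 genes had an unadjusted p under 0.05. Named partner genes without L7 replicate 3 were added after seeing the data.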
